A study of Mus musculus with 10 samples.

Results

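Among 65298 barcodes kept from E0771 breast tumors, 50 met a rule that asked for at least 3 UMIs of 9 epithelial genes. The rule also asked for fewer UMIs of tumor genes and at most 1 UMI of the immune genes examined. A barcode marks the contents of a droplet, and each of its RNA molecules was counted once as a unique molecular identifier (UMI). Kept barcodes had 200 to 7000 genes and at most 10% mitochondrial UMIs. A kept barcode was counted as epithelial when it held at least 3 UMIs of the 9 genes Epcam, Krt5, Krt14, Krt7, Krt15, Krt17, Cdh1, Trp63 and Elf5 (the sum K). K also had to exceed the sum E of the tumor genes Cdh13, Pvt1, Esx1, Fmnl2 and Aebp1, and the sum I of the immune genes Ptprc, C1qa, C1qb, C1qc and Skap1 could be at most 1. The members were thus selected on the measured UMIs of these 19 genes, whose levels are given as a description.

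The study asked whether loss of AGO1, a protein of the RNA-induced silencing complex, from endothelial cells (ECs) changes breast tumors. E0771 cells, a mouse mammary carcinoma line, were mixed with Matrigel and injected into the fourth mammary fat pad of female C57BL/6 mice aged 16 weeks, and tumors were taken at day 21. EC-AGO1-KO mice came from a cross of VE-Cadherin-Cre (Cdh5-cre) with AGO1 flox/flox mice, in which Cre is driven by an endothelial promoter, and WT mice were their littermates. Of 10 libraries of dissociated single cells, 5 were WT and 5 KO. Batch 1 held 1 library of each genotype and batch 2 held 4 of each. The 5 WT libraries held 5 tumors and the 5 KO libraries 7, because KO 2+3 and KO 5+6 pooled 2 tumors each. Each library counted as 1 sample. Libraries held between 8323896 and 10591577 UMIs in all barcodes.

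The mammary gland is a system of ducts within fat. Its inner luminal cells include hormone-sensing cells, which carry the receptors for estrogen, progesterone and prolactin, and progenitors of the cells that make milk. Its outer basal layer consists of contractile myoepithelial cells that share Krt5 and Krt14 with the lowest layer of the skin, whereas the upper layers of the skin make proteins of the horny envelope. Carcinoma cells that have lost epithelial genes often carry mesenchymal ones such as Vim.

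Most of the UMIs that chose the members were of Epcam, an adhesion molecule of epithelia. It lies on chr17:87635979-87651129 on the plus strand of mm10. Its promoter is shown because the letters CACCTG, and CAGGTG on the other strand, are known as a sequence bound by the repressors of epithelial genes Zeb1 and Zeb2, whose levels are given further on. The 250 bases before the start of the gene (RefSeq, GRCm38.p6, chr17:87635729-87635978, plus strand) hold both, in capitals, beginning 187 and 19 bases before the start.
Epcam promoter: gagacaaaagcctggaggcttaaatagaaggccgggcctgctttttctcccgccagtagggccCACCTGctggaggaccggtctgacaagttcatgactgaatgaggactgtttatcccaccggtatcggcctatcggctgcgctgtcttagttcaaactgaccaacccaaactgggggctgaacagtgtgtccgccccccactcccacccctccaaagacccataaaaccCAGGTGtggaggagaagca
Of 32851 promoter windows of 250 bases in the same table, 17.2% hold at least 1 of these motifs and 2.06% hold at least 2. Among the windows of Prlr, Gata3 and Ptn, genes described further on, 1 of 3, 0 of 1 and 0 of 1 hold either motif. A match of letters is a description and not a site of binding.

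The epithelial barcodes were rare and unevenly spread over the libraries. WT 1, WT 3, WT 4 and WT 5 held 2, 2, 10 and 2 of them among 10190, 7952, 9398 and 6212 kept barcodes. KO 1, KO 2+3, KO 4 and KO 5+6 held 18, 2, 1 and 13 among 8348, 6591, 7229 and 7216. In all, 41 of the 50 (82%) came from the 3 libraries KO 1, KO 5+6 and WT 4, and the other 5 libraries of batch 2 held 9. No epithelial barcode was found among 1194 WT and 968 KO kept barcodes of batch 1, which allows shares of up to 0.251% and 0.310% by the limit of 3 counts (0.308% and 0.380% by the exact interval). Since these limits lie above every share in batch 2, a difference between the batches was not detectable at these numbers.

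The share of epithelial barcodes was 0.216% in KO 1 (95% exact Clopper-Pearson interval 0.128 to 0.341%), 0.180% in KO 5+6 (0.0960 to 0.308%) and 0.106% in WT 4 (0.0510 to 0.196%). In the other libraries of batch 2 it lay between 0.0138% in KO 4 and 0.0322% in WT 5. Intervals and limits cover counting error only. Averaged over libraries, the share in WT tumors was 0.0367% ± 0.0408 (SD, n = 5). In KO tumors it was 0.0880% ± 0.102 (SD, n = 5). The groups overlapped, and the difference of 0.0513 percentage points did not exceed the spread between libraries (p = 0.371, exact two-sided permutation test with labels permuted within batch, smallest possible p = 0.0143). Within batch 2 the difference was 0.0641 percentage points (p = 0.371, same exact test). Over both batches, the difference was 0.0194 percentage points without KO 1 and 0.0283 without KO 5+6.

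**Figure D1:**
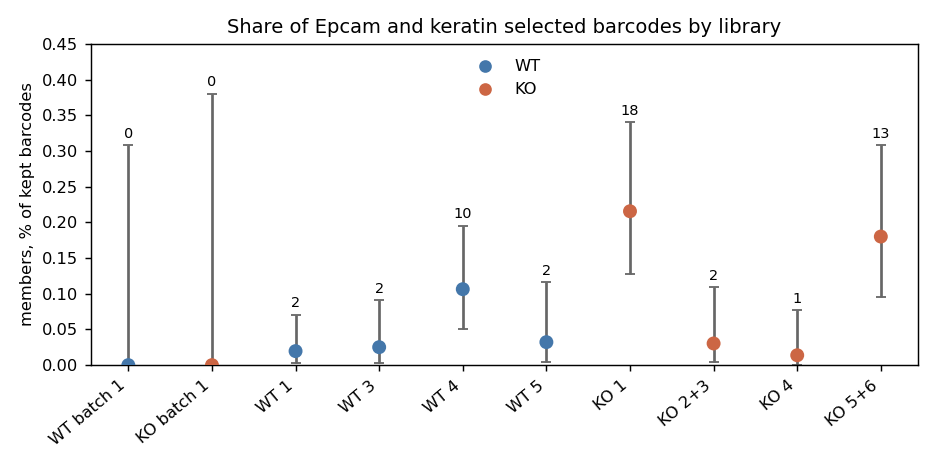
Share of kept barcodes that were epithelial (%, vertical axis) in each of the 10 libraries (horizontal axis), with exact 95% binomial intervals and the number of epithelial barcodes above each point. KO 1, KO 5+6 and WT 4 stood above the other libraries, and both libraries of batch 1 were at 0.

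The label of keratin-positive cells held only in part. Of the 296 UMIs of the 9 choosing genes, 202 (68.2%) were Epcam, found in 45 of the 50 barcodes. Cdh1, which encodes E-cadherin, gave 41 UMIs in 21 barcodes. Krt14, a keratin of basal epithelia, gave 13 UMIs in 9 barcodes, Krt17 11 UMIs, and Krt5, Krt7 and the basal transcription factor Trp63 8 UMIs each. A UMI of any of the 5 keratins used was present in 17 barcodes, and 7 held at least 3. Of all 53 keratin genes listed, 29 barcodes held at least 1 UMI and 21 held none. The barcodes are therefore called Epcam-led epithelial barcodes or, in short, members. At a median of 860.5 UMIs per member (242 to 2289), the absence of a keratin UMI does not show that a keratin is absent.

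Immune and tumor transcripts within the choosing rule were few because the rule limited them, so their counts only describe the selection. I was 0 in 48 members and 1 in 2. E was 0 in 22 members, 1 or 2 in 25 and at least 3 in 3. Pvt1, a long noncoding RNA next to Myc, gave 25 of these UMIs, Fmnl2 13, Cdh13 10, Aebp1 1 and Esx1 0. Among 790 kept barcodes with at least 3 immune UMIs, drawn from both batches, none reached a K of 3, which allows up to 0.380%. Of 64765 distinct kept barcode sequences, 532 occurred in more than 1 library, and 1 member was among them.

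Barcodes on both sides of the limit on K carried hormone-sensing genes. Levels are given as CPM, the UMIs of a gene in summed barcodes per 1000000 UMIs, and since the tags come from the 3′ end of the RNA they are not scaled by gene length. Prlr, the prolactin receptor, was at 1358 CPM in 82 barcodes with a K of 1 and 1790 CPM in 40 with a K of 2, which met the other limits. It was at 3041 CPM in 19 members with a K of 3, 5982 CPM in 10 with a K of 4 and 1647 CPM in 21 with a K of 5 or more. Of the 44 Prlr UMIs at a K of 4, 31 lay in a single member of KO 1. Gata3, a transcription factor of the luminal lineage, lay between 1843 and 2719 CPM in all 5 classes. Vim, the mesenchymal intermediate filament, was at 396 CPM at a K of 1 (14 UMIs) and 316 CPM at 2 (6 UMIs). It was at 74.2 CPM at 3 (1 UMI) and at 0 UMIs at 4 and above. The 10 barcodes with a K of 4 held only 7356 UMIs in all. A limit of 3 counts there lies above the level at a K of 1, so their 0 shows no fall. Those with a K of 5 or more held 24898 UMIs. The 6 barcodes with a K of at least 3 that did not exceed E had 0 Prlr UMIs, Vim at 2111 CPM and a median E of 29.

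**Figure D2:**
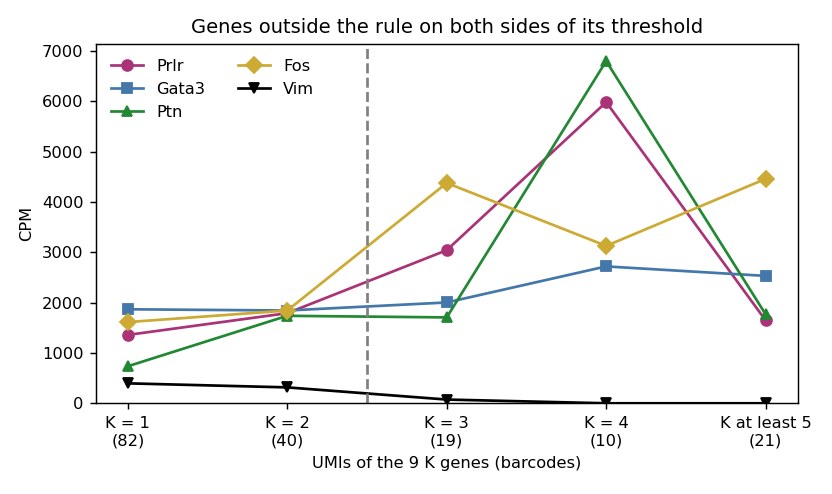
Level of Prlr, Gata3, Ptn, Fos and Vim (CPM, vertical axis) in barcodes with a K of 1, 2, 3, 4 and 5 or more that met the other limits (horizontal axis). The members begin at a K of 3, where Vim was at 74.2 CPM (1 UMI) against 396 CPM (14 UMIs) at a K of 1. Gata3 stayed between 1843 and 2719 CPM.

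Among the mammary and skin lists, the hormone-sensing luminal list had the highest summed level in members. All 10 listed genes had a UMI, 287 UMIs in 38 members, and the list summed to 6275 CPM against 217 CPM in the other kept barcodes, 88.3 CPM in the immune barcodes and 292 CPM in free RNA, taken from barcodes with at most 50 UMIs. Of the 10 genes, 9 were at least 2-fold higher than in the other kept barcodes with 20 CPM added to both. Of all 27391 genes with a UMI, 6.44% were at least 2-fold higher and 7.53% at least 2-fold lower by this measure. The median log2 fold was -0.02 over all genes and 0.40 over the 7319 genes with a UMI in members. The 1765 higher genes can only lie among those 7319. No test was applied here, because the choice of barcodes separated these sets. The other kept barcodes were drawn from both batches, the members only from batch 2. Against the other barcodes of batch 2 alone, 1750 genes were at least 2-fold higher and 1675 lower.

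Prlr was the most abundant gene of this list. It gave 14 UMIs in WT 1, 0 in WT 3, 14 in WT 4, 1 in WT 5, 69 in KO 1, 0 in KO 2+3, 8 in KO 4 and 20 in KO 5+6, in all 126 UMIs in 23 members (2755 CPM, 95% exact Poisson interval 2295 to 3280), against 4.84 CPM elsewhere. Its UMIs were concentrated, with 31 in a single member. Prlr was seen in 46% of members and in none of the 790 immune barcodes, whose median depth of 2347.5 UMIs was greater, and in 0.259% of the other kept barcodes at a median of 695 UMIs. The immune barcodes were drawn from both batches, and batch 1 held no members. The immune genes of the rule were at 285 CPM in all other kept barcodes, but at 25.9, 50.5 and 71.1 CPM in those of WT 4, KO 1 and KO 5+6. Batch and cell type were thus not separated in this contrast.

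Gata3 was spread more evenly than Prlr. It gave 3 UMIs in WT 1, 0 in WT 3, 14 in WT 4, 2 in WT 5, 50 in KO 1, 4 in KO 2+3, 8 in KO 4 and 29 in KO 5+6, in all 110 UMIs in 33 members (2405 CPM against 10.4 CPM elsewhere). WT 3, whose members numbered 2, was the only library with members but no Gata3 UMI. Gata3 is also a gene of T cells, and 4.43% of the immune barcodes held a UMI of it. Esr1, the estrogen receptor, gave 12 UMIs in 8 members, and the repressor Tbx3 gave 17 UMIs in 14. Pgr, the progesterone receptor, and Cited1, a coregulator of hormone-sensing cells, gave 4 UMIs each and the pioneer factor Foxa1 3, which were at or close to the 3-UMI limit of 65.6 CPM. After each barcode was thinned to 500 UMIs, which 41 members reached, Epcam was seen in 82.9% of the 41, Gata3 in 63.4% and Prlr in 41.5%. Over all 50 members before thinning, these shares were 90%, 66% and 46%. Among the immune barcodes Epcam and Prlr stayed at 0.

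Other epithelial genes were present at low counts. The pan-epithelial list, without the choosing genes, gave 111 UMIs in 42 members and 2427 CPM against 101 CPM elsewhere, and 16 of its 19 genes had a UMI. Esrp1, a splicing factor of epithelia, gave 18 UMIs, the epithelial transcription factor Grhl2 16, the luminal keratin Krt19 15 and the desmosomal gene Dsp 12. Krt8 and Krt18, the paired keratins of simple epithelia, gave 8 UMIs each. Krt8 was also present elsewhere (70.8 CPM, against 175 CPM in members), whereas Krt18 was at 0.160 CPM elsewhere.

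Luminal progenitor and milk genes were sparse. Of 14 genes, 9 had a UMI, 40 UMIs in 24 members and 875 CPM against 68.9 CPM elsewhere. Kit, a receptor of luminal progenitors, gave 11 UMIs in 10 members, Lcn2, a secreted iron-binding protein, 9 in 9 and the casein Csn3 5 in 4. The milk genes Csn2, Csn1s1, Lalba and Wap were at 0 UMIs. Of 18 members with a UMI of Kit, Csn3 or Lcn2, 16 also held one of Prlr, Gata3 or Esr1.

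Basal and myoepithelial genes came mainly from a few members. The list gave 37 UMIs in 15 members and 809 CPM against 67.8 CPM elsewhere and 373 CPM in free RNA. All 12 genes had a UMI, and 8 were at least 2-fold higher against 6.44% of all genes, but 4 of the 8 (Myl9, Cnn1, Oxtr and Lmod1) by a single UMI, which alone reaches 2-fold over a gene near 0. Mylk, the kinase of smooth muscle myosin, gave 9 UMIs in 8 members, the growth factor Nrg1 9 in 6 and smooth muscle actin Acta2 7 in 6. Nrg1, at 197 CPM, was not above free RNA (241 CPM), whereas Mylk (197 against 54.2 CPM) and Acta2 (153 against 12.4 CPM) were. By library the list gave 3 UMIs in WT 4, 2 in KO 1 and 23 in KO 5+6, with 9 in the remaining libraries, so the members of KO 5+6 held most of it. Without KO 5+6 the list was at 386 CPM, against 373 CPM in free RNA, of which Nrg1 alone gave 241 CPM.

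Members differed in the luminal and basal genes they held. A UMI of Prlr, Gata3 or Esr1 was present in 36 members and one of Krt5, Krt14, Krt17 or Trp63 in 13, with 4 in both counts and 5 in neither. The 32 members with hormone genes alone had a median of 1071 UMIs and held 33581 of the 45737 UMIs of all members. They held all 8 UMIs of Krt8, all 8 of Krt18 and 14 of the 15 of Krt19, genes that the split did not use. The 9 members with basal genes alone had a median of 574 UMIs. The basal and myoepithelial list, which holds none of the genes of the split, gave 17 UMIs in 7 of them (2641 CPM) and 6 UMIs in the 32 (179 CPM). Levels of the hormone-sensing list and of Epcam are not compared between these classes, because the split or the choice of members fixed them. Of the 32, 7 came from WT 4, 14 from KO 1 and 6 from KO 5+6, and of the 9, 2, 3 and 3. These classes were formed from genes with few UMIs, and a gene missing from a shallow member may be unsampled.

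Clusters of the members depended on the setting. With the Leiden algorithm at resolution 0.5 the 50 members formed 1 group. At resolution 1 they formed 5, of 13, 12, 12, 7 and 6 barcodes. One group of 12, with members from WT 1, WT 3, WT 5, KO 1, KO 2+3 and KO 5+6, was led by Lhfp, Klhl29, Acta2, Slit2, Pdpn, Sdk1, Nlgn1, Map7, Ikzf4 and Krt17, in that order. It held no member of WT 4, unlike the class with basal genes alone. As a description of cells that these genes helped to cluster, it held 31 of the 37 UMIs of the basal and myoepithelial list and 1063 CPM of the hormone-sensing list against 7983 CPM in the other members. The group of 6, of which 5 came from KO 1, reached 14493 CPM of the hormone-sensing list. Groups this small were left unnamed.

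Skin genes were present in part. The differentiating epidermis list, 14 genes of the upper skin, gave 0 UMIs in 50 members, which allows up to 7.11% of members with a UMI by the exact binomial limit but sets no limit on members that express these genes, and it was at 34.8 CPM in free RNA. The basal keratinocyte and hemidesmosome list gave 46 UMIs in 22 members and 1006 CPM against 550 CPM elsewhere. A UMI was present for 7 of its 14 genes, and 4 were at least 2-fold higher, against 6.44% of all genes. Of the 46 UMIs, 23 were Dst and 10 Itga6, 2 genes of cell anchorage that the other kept barcodes also carried. These 2 genes were there at 326 and 211 CPM, against 503 and 219 CPM in members. The hair follicle and sebaceous gland list gave 108 UMIs, of which 102 were Sox9, a transcription factor also present elsewhere at 1152 CPM. The summed level of the basal keratinocyte list was thus carried mostly by genes that the other barcodes held too. The 4 higher genes, Lamb3, Lama3, Sfn and Fermt1, gave 3, 2, 3 and 4 UMIs. They were at 65.6, 43.7, 65.6 and 87.5 CPM, against 0.204 to 2.07 CPM elsewhere. The basal and myoepithelial list was at 809 against 67.8 CPM, but at 386 CPM without KO 5+6. The hormone-sensing list was at 6275 against 217 CPM.

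**Figure D3:**
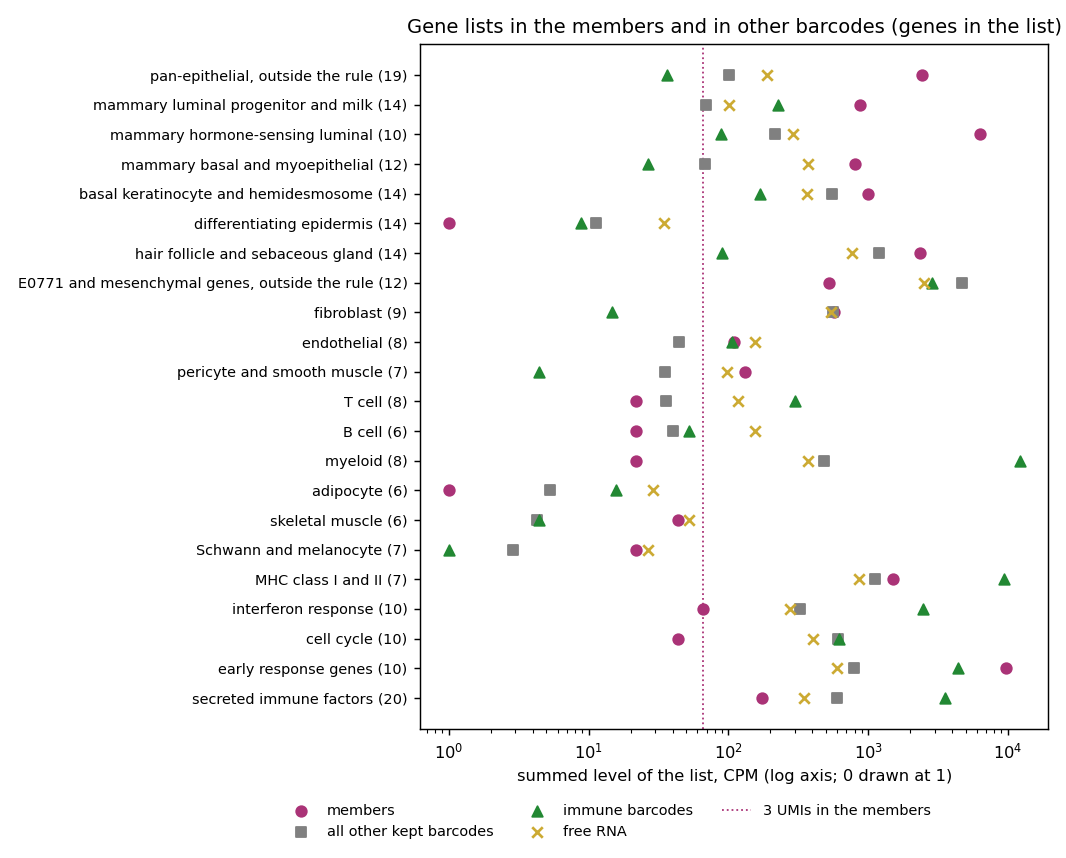
Summed level of 22 gene lists (CPM, horizontal log axis, lists on the vertical axis) in members, other kept barcodes, immune barcodes and free RNA, with a dotted line at the 3-UMI limit of the members. The hormone-sensing luminal list stood at 6275 CPM in members and 217 CPM elsewhere, and the cell cycle list at 43.7 and 611 CPM.

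The genes that led the members over the other barcodes, in order of fold and beyond Epcam, Prlr, Gata3 and Cdh1, were Ptn, Nrxn3, Auts2, Egr1, Efna5, Tmprss13, Tmem56, Igfbp5, Fos, Gm48664, Btg2, Ptprk, Rbm47, Gpc6, Rora and Stox2. Ptn, a secreted heparin-binding growth factor, gave 0 UMIs in WT 1, 1 in WT 3, 14 in WT 4, 0 in WT 5, 58 in KO 1, 0 in KO 2+3, 1 in KO 4 and 43 in KO 5+6, 117 in all (2558 CPM against 3.24 CPM elsewhere). Nearly all Ptn UMIs thus lay in the 3 libraries with most members, and 115 of them in the 32 members with hormone genes alone. Nrxn3, a neurexin, gave 112 UMIs in 16 members, all of them among those 32, with 34 in a single member. Auts2 gave 87 UMIs in 33 members, Igfbp5, a binding protein of insulin-like growth factors, 40 in 24, and the membrane protease Tmprss13 38 in 20.

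Some abundant genes were shared with the other barcodes but higher in members. Trps1, a zinc finger repressor of the breast lineage, gave 352 UMIs in 43 members (7696 CPM against 668 CPM elsewhere), and Bhlhe41, a clock-related repressor, 343 in 42 (7499 CPM against 310 CPM). Sdc4, a heparan sulfate proteoglycan, was at 6013 CPM against 3377 CPM. Actb went the other way, with 54289 CPM in members against 104940 CPM elsewhere. Actb was also lower within libraries, with 5.07% of member UMIs against 13.3% in KO 1 and 4.05% against 11.7% in KO 5+6.

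Immediate early genes, which rise within minutes of many stimuli, were abundant. The list of 10 gave 440 UMIs in 48 members. It was at 9620 CPM, against 795 CPM in the other barcodes, 4416 CPM in immune barcodes and 597 CPM in free RNA. Of the 10 genes, 9 were at least 2-fold higher than in the other barcodes, against 6.44% of all genes. Fos gave 7 UMIs in WT 1, 3 in WT 3, 52 in WT 4, 8 in WT 5, 68 in KO 1, 4 in KO 2+3, 6 in KO 4 and 45 in KO 5+6. Its level was 4220 CPM over all members and lay between 1330 CPM in WT 3 and 6373 CPM in WT 4, so every library with members was above the 106 CPM of the other barcodes. Egr1 gave 75 UMIs in 32 members (1640 CPM against 13.8 CPM elsewhere), Fosb 52 in 28 and Jun 36 in 25.

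**Figure D4:**
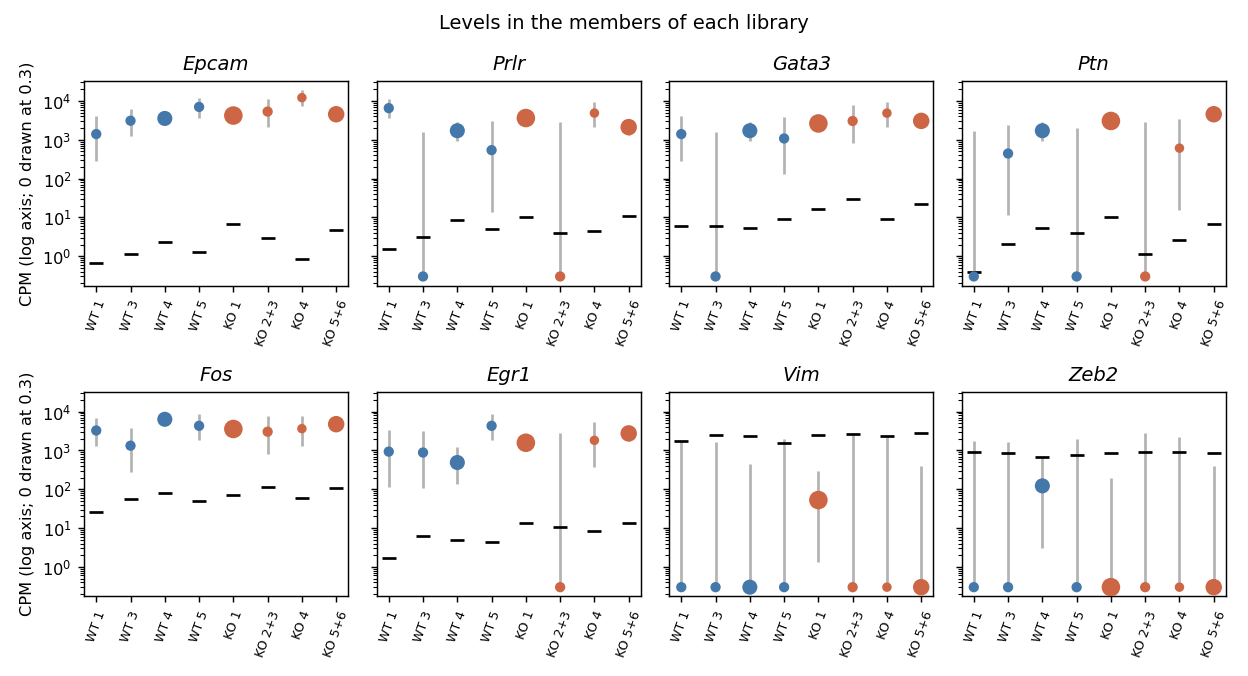
Level of Epcam, Prlr, Gata3, Ptn, Fos, Egr1, Vim and Zeb2 in the members of each library (CPM, vertical axis, exact 95% Poisson intervals, larger points for more members) with dashes for the other kept barcodes of the same library. Fos lay between 1330 and 6373 CPM in the members, and Vim was at 1 UMI in all members together.

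Mesenchymal genes were nearly missing. The list of E0771 and mesenchymal genes outside the rule gave 24 UMIs in 17 members and 525 CPM against 4682 CPM elsewhere. Of its 12 genes, 6 were at least 2-fold lower, against 7.53% of all genes, and Snai2 was higher by a single UMI. Of the 6, Twist1 was below the 3-UMI limit elsewhere too. Of the 24 UMIs, 12 were Myc. Vim gave 1 UMI, in KO 1, in all members (21.9 CPM, exact Poisson interval 0.554 to 122), against 2493 CPM elsewhere. After thinning to 500 UMIs it was seen in 2.44% of members and 60.3% of the other barcodes. Genes outside this list were low as well. Gapdh was at 65.6 CPM in members against 1713 CPM elsewhere and 465 CPM in the other barcodes of batch 2. Ribosomal protein genes made up 2.27% of member UMIs against 6.27% elsewhere, batch 1 included. Within libraries the gap was smaller, with 2.48 against 2.62% in WT 4, 2.48 against 3.64% in KO 1 and 2.09 against 3.26% in KO 5+6. Neat1 was higher, at 0.969 against 0.270%. The cause was not tested. The repressors Zeb1 and Zeb2, whose motif letters were shown in the Epcam promoter, gave 1 UMI each, against 288 and 797 CPM elsewhere, and both lay in the same WT 4 member. That member also held 16 of the 18 Col1a1 UMIs of WT 4. The chromatin protein Hmga2 gave 1 UMI against 416 CPM. Whether that barcode held more than 1 cell was not tested, and doublets were not removed.

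Members also carried transcripts abundant in tumor cells. The 20 genes most enriched in barcodes with an E of at least 3, no K and no I made up 1.21% of member UMIs, 1.63% in the other barcodes, 1.74% in those tumor barcodes and 0.0878% in immune barcodes. Each member held at least 1 such UMI, from 0.137 to 3.14% of its UMIs. Sox9, Mast4 and Ank3 were above the other barcodes in each of WT 4, KO 1 and KO 5+6. Magi1 was above them over all members (1224 against 873 CPM) and in KO 1 (1213 against 754 CPM). It was below them in WT 4 (980 against 1017 CPM) and KO 5+6 (636 against 1113 CPM). Gm30835, Fscn1, Cavin1, Gm28875 and Myef2 were lower in members (for Fscn1 109 against 573 CPM). Whether these UMIs were free RNA, doublets or the members' own was not tested.

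Genes of other cell types gave few UMIs. The lists of T cells, B cells and myeloid cells gave 1 UMI each, Schwann cells and melanocytes 1, skeletal muscle 2, endothelium 5, pericytes 6 and adipocytes 0. The myeloid list was at 21.9 CPM against 483 CPM elsewhere, where batch 1, which held no members, was included. The endothelial list was at 109 CPM against 44.5 CPM and the pericyte list at 131 CPM against 35.3 CPM, both from so few UMIs that they were close to the level of free RNA (155 and 97.4 CPM). The fibroblast list gave 26 UMIs in 4 members, of which 23 lay in WT 4. It was at 562 CPM in the other barcodes and, without WT 4, at 79.8 CPM in members. Among genes of antigen presentation, H2-K1 gave 37 UMIs and B2m 26, and the class II genes such as H2-Aa gave 0. The interferon response list gave 3 UMIs (325 CPM elsewhere), and the secreted immune factors were at 175 CPM against 601 CPM. The cell cycle list gave 2 UMIs, 43.7 CPM against 611 CPM elsewhere, with 8 genes at least 2-fold lower, against 7.53% of all genes. Of these 8, 6 lay below the 3-UMI limit of 65.6 CPM in the other barcodes as well. A lower level could thus be read only for Top2a and Cenpf. Top2a, a topoisomerase of dividing cells, gave 1 UMI against 272 CPM.

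Hormone genes also marked barcodes that the choosing rule missed. At least 3 UMIs of Prlr, Gata3 and Esr1 together were present in 24 members, in 48 kept barcodes with a K of 1 or 2 and in 39 with a K of 0. Of the 48, WT 4 held 9, WT 5 7, KO 1 13, KO 2+3 6, KO 4 2 and KO 5+6 11. Their Vim level was 283 CPM, and 28 of them held a pan-epithelial UMI, whereas those with a K of 0 had Vim at 1437 CPM.

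The gene knocked out in ECs was too sparse to be followed in the members. Ago1 gave 2 UMIs in all of them, 1 in KO 1 and 1 in KO 5+6, and 0 in WT 4, where the 3-UMI limit is 368 CPM. In the other kept barcodes it lay between 4.33 and 7.06 CPM in the WT libraries and between 4.45 and 6.92 CPM in the KO libraries. Cdh5, the endothelial gene whose promoter drives Cre, gave 0 UMIs. The paper states that deletion was confined to ECs, so the members are not the cells in which a loss would be looked for. The tags also come from the 3′ end of the RNA, and the deleted part of the gene is not given in the sources used here. These counts therefore do not check the labels.

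Between genotypes, genes were tested on summed UMIs of the libraries with at least 10 members, WT 4 against KO 1 and KO 5+6. With a single WT library the fit had 1 residual degree of freedom and assumed that WT 4 varied like the KO libraries. Of 212 genes tested, 3 passed an adjusted p of 0.05 (1.42%), 2 higher in the KO libraries (0.943%) and 1 lower (0.472%), and 7.55% had an unadjusted p under 0.05 (16 genes, edgeR quasi-likelihood test). These calls compare WT 4 with 2 KO libraries, and no spread within WT was measured. They were lost with members of I = 0, where the log2 differences were 2.61 for Srsf2, 3.58 for Rps25 and -7.77 for Col1a1. With DESeq2 none of the 212 passed, and 5 had an unadjusted p under 0.05, although its log2 differences for the genes called by edgeR were of like size (2.76 for Srsf2, 3.77 for Rps25 and -7.29 for Col1a1).

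Srsf2, a splicing factor, gave 3 UMIs in WT 4, 48 in KO 1 and 22 in KO 5+6 (368, 2532 and 2332 CPM). The log2 difference between these KO libraries and WT 4 was 2.77 (SE 0.78, edgeR adjusted p = 0.0389). In the other barcodes of the same libraries it was at 1344, 1671 and 1343 CPM, so the gap between KO and WT was smaller there. With all 8 libraries that held a member the log2 difference was 1.37 (edgeR adjusted p = 0.980, genes of at least 10 UMIs). That setting changed the libraries of both genotypes and the filter together. With the replicate number as a block over all libraries with a member, the log2 difference turned to -0.13.

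Rps25, a ribosomal protein, gave 1, 26 and 18 UMIs (123, 1372 and 1908 CPM) with a log2 difference of 3.68 from WT 4 (SE 1.05, edgeR adjusted p = 0.0389). In the other barcodes it was at 678, 1541 and 1487 CPM, with the same order of WT 4 below the KO libraries. With all 8 libraries the log2 difference was 1.20 (edgeR adjusted p = 0.980, genes of at least 10 UMIs).

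Col1a1, the fibroblast collagen, gave 18 UMIs in WT 4 (2206 CPM) and 0 in both KO libraries, where it was at least 20.9-fold lower against a limit of 3 UMIs over both (edgeR adjusted p = 0.0389). Of the 18 UMIs, 16 lay in 1 barcode. In the other barcodes of WT 4, KO 1 and KO 5+6 Col1a1 was at 275, 242 and 318 CPM. With all 8 libraries that held a member and genes of at least 10 UMIs, 1 of 1016 genes passed (0.0984%, 37 at an unadjusted p under 0.05, edgeR), and it was Col1a1 (log2 difference -5.48, edgeR adjusted p = 0.0118). Without KO 1 or KO 5+6 the log2 difference was of like size but did not pass (-5.03 and -5.34, edgeR adjusted p of 0.451 and 0.274), and without WT 4 Col1a1 was not tested, because 1 UMI was left.

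Of the other genes of smallest p, the first 5 in each direction with the called ones included, Zfp36l1, which promotes decay of mRNA, was at 1, 21 and 19 UMIs (log2 difference 3.59, edgeR adjusted p = 0.0505), Egr1 at a log2 difference of 2.16 (adjusted p = 0.180) and Map3k1, a kinase gene, at 2.12 (adjusted p = 0.389). Mpp7, a cell polarity gene, was at 18, 13 and 6 UMIs (log2 difference -1.64, edgeR adjusted p = 0.389), and Ptma, Pam and Abhd2 at -1.13, -1.10 and -1.01 (adjusted p of 0.624, 0.644 and 0.668). None of these passed. Over all 8 libraries Ptma, Pam and Abhd2 were at -0.42, -0.24 and 0.09 (genes of at least 10 UMIs). Without WT 4 they were at 0.54, 0.45 and 1.54. Ptma and Pam thus changed sign when WT 4 was left out, while Abhd2 was already positive with all 8 libraries. Egr1 was at 0.65 over all 8 libraries. With 1 library left out, Egr1 lay between -0.03 without KO 5+6 and 1.35 without WT 5.

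Of the gene lists few members could be tested. Prlr and Gata3 of the hormone-sensing list had log2 differences of 0.85 and 0.80 (edgeR adjusted p = 0.858 for both), and of the early response list Egr1, Fosb, Fos and Jun were tested, with 0 called and a median of 0.58 against 0.08 over all genes tested. Fos had a log2 difference of -0.54. Epcam is not compared between the genotypes, because its UMIs chose the members. On simulated counts of this size the test recovered 9.43% of genes changed by 2 on the log2 scale (10 genes, beside 2 false calls) and 99.1% of those changed by 4 (104 genes, beside 2 false calls), so changes of a few fold were mostly missed at this depth.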

How the data were processed

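Single-cell RNA was captured with 10x 3′ chemistry from 10 libraries, 5 WT and 5 KO. The deposited values are unnormalized UMI counts of 31053 genes in every barcode, empty droplets included, which the authors obtained with Cell Ranger 7.1.0 and mm10 according to the submitters' processing notes. Members of the epithelial set and the 22 gene lists were chosen with earlier results of these data known. Genes named by rule were the genes of the selection, the highest of each list, the 20 of largest fold over other barcodes, the leading genes of groups of members, the 20 tumor genes and the called or smallest-p genes between genotypes.

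Python 3.11.15, scanpy 1.11.5, leidenalg 0.10.2 and scipy 1.17.1 were used for selection, clustering (1000 variable genes without Actb, mitochondrial and ribosomal genes, 20 principal components, 15 neighbours, log of UMIs per 10000), intervals and permutation tests. UMIs were summed over members per library and tested by edgeR 4.0.16 in R 4.3.3 (TMM, filterByExpr, Benjamini-Hochberg). A batch term had been planned, but no library of batch 1 had members. DESeq2 1.42.0 was an alternative. Alternatives changed the limits on K, E, I, genes and mitochondrial UMIs, the denominator, depth, filters and libraries. The test was tested on simulated data. Members held 45737 UMIs in all, so the 3-UMI limit was 65.6 CPM. Doublets and free RNA were not removed, and the authors' cell annotation was not used here. Promoter sequence came from RefSeq (GRCm38.p6).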

Additional observations from a re-analysis of the deposited data

Results flagged for a closer look

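Within the WT libraries of batch 2, WT 4 stood apart in its share of epithelial barcodes, at 0.106% against 0.0196 to 0.0322% in WT 1, WT 3 and WT 5. The gap to its nearest neighbour was 0.855 of the range of the 4 libraries, above the limit of 0.829 of Dixon's gap test. WT 5 stood apart in depth, with a median of 1142 UMIs per kept barcode against 595 to 640 in the other 3 (gap 0.918 of the range). Chance puts about 1 in 20 groups past this limit. Of 10 groups tested, some of which shared libraries, these 2 passed it. Over all 5 WT libraries the share of WT 4 did not, with a gap of 0.697 of the range against a limit of 0.71.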

How the results depend on the processing

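The difference between KO and WT in the share of epithelial barcodes kept its sign and did not pass the test under any of 22 alternatives, which ranged from 0.0194 percentage points without KO 1 to 0.126 with a K of at least 2. Leaving out 1 library gave 0.0194 to 0.0733. The number of genes called between WT and KO members (3) was 0 with DESeq2 (5 at an unadjusted p under 0.05), 1 without a filter on low counts, 0 of 7 tested with all libraries that held a member (0 unadjusted), 1 with those libraries and genes of at least 10 UMIs (0 to 1 when each library was left out), 0 with members of I = 0 (12 unadjusted, with Srsf2, Rps25 and Col1a1 at log2 differences of 2.61, 3.58 and -7.77), 1 with the latter over all libraries and 0 with members of E = 0 over all libraries (2 unadjusted). It was 3 with Actb left out of the counts and with genes of at least 10 UMIs. The alternatives with genes of at least 10 UMIs, and those over all libraries except the one under the usual filter, were chosen after seeing the data. These settings tested between 5 and 6707 genes against 212, and the cause of the lost calls was not tested. Not run, because the fit had no residual degrees of freedom or no WT library with 10 members, were E = 0, a minimum of 20 members, each library left out and the pooled KO libraries left out at the planned minimum of 10 members.

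With the replicate number as a block (replicate block), the share differed by 0.0345 percentage points (p = 1, exact permutation test with 8 relabelings, too few to reach 0.05), and 0 genes were called over all libraries (1 at an unadjusted p under 0.05), with Srsf2 at a log2 difference of -0.13 (edgeR adjusted p = 0.997). That fit changed the libraries and the block together, and without the block Srsf2 was at 1.37 over all libraries with genes of at least 10 UMIs and at 2.77 over the 3 libraries. The cause was not tested. Deviations of same-numbered libraries from their group means correlated at r = -0.338 for replicate 1 and -0.417 for replicate 4 across genes, and at 0.375 for WT 3 with KO 2+3 and 0.328 for WT 5 with KO 5+6, which share a number through a pool. Since not every pair was positive, the numbers were not taken to pair the libraries.

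The share of members with a UMI of the basal and myoepithelial list was 30% and 13.6% with E = 0, and that of the early response list 96% and 100% with a K of at least 4. The share for the hormone-sensing list, 76%, lay between 65.6 and 81.8%. With 5 CPM added in place of 20, 2807 genes were at least 2-fold higher and 4777 lower, against 1765 and 2062. At resolution 1 the members formed 5 groups. Depth limits all gene statements, with a median of 860.5 UMIs per member.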
